A study of Mus musculus with 12 samples.

Results

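The FoxO transcription factors *Foxo1*, *Foxo3*, and *Foxo4*, the ubiquitin ligases *Fbxo32* (atrogin-1), *Trim63* (MuRF1), *Trim54* (MuRF3), and *Trim55* (MuRF2), and the stress-response genes *Klf15* and *Sesn1* were examined in the raw count table. These 9 genes were chosen by name as members of the muscle atrophy program, with earlier results of these data known. They are 9 of 55536 identifiers in the table. RNA-seq was performed on C2C12GFP cells, a line of C2C12 mouse myoblasts (muscle precursor cells) that expresses green fluorescent protein, after switching to a low-serum medium in which they fuse into multinucleated myofibers. The control group grew on uncoated plates, and the other groups grew on plates coated with Collagen I, with fibronectin, or with Geltrex™, a basement membrane matrix made mainly of laminin, Collagen IV, and entactin. Each of the 4 groups had 3 samples, numbered 1 to 3. All groups share 1 commercial cell line and the same medium. The sources used here do not give the day on which the RNA was taken, and nothing in them says that the samples of a group came from separate cultures, so p-values measure the spread between these samples, which may be technical.

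FoxO proteins are forkhead transcription factors that AKT, the kinase downstream of insulin and insulin-like growth factors, phosphorylates and keeps out of the nucleus. When AKT signaling falls in skeletal muscle, FoxO proteins enter the nucleus and activate genes of protein breakdown, among them *Fbxo32* and *Trim63*, whose products mark muscle proteins for the proteasome. MuRF proteins sit at the sarcomere, the contractile unit of the myofiber, and KLF15 and SESN1 link this program to glucocorticoids and to the nutrient-sensing kinase mTORC1, respectively.

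The libraries held between 22520404 and 27351766 counted reads, with a median of 24312732. Samples of 1 group differed from each other by more than sampling noise. The chi-square per degree of freedom was 20.8 to 31.2 between samples of the control and of the fibronectin group. On Collagen I it was 7.71 between samples 1 and 2, but 44.4 and 64.6 between sample 3 and samples 1 and 2, respectively. Geltrex™ samples were much closer to each other, at 2.18 to 4.54, and results that depended on their spread are given also with those samples summed into 1. The muscle label held: all 10 myotube markers, among them *Myog*, *Acta1*, *Ckm*, and *Ttn*, were detected in every group. Their summed level was 8022 to 8938 CPM (read counts scaled to a common library size) in the control, 8629 to 9192 on Collagen I, 2597 to 2930 on fibronectin, and 3696 to 4113 on Geltrex™. Markers of cycling cells went the other way, with summed levels of the 8 markers of 183 to 234 CPM in the control, 153 to 166 on Collagen I, 583 to 775 on fibronectin, and 622 to 671 on Geltrex™. Leukocyte and adipocyte markers reached at most 35 and 10 counts in any sample, respectively, and the highest count of an osteoblast marker was 155. The summed level of the 4 osteoblast markers was 6.27 to 6.47 CPM on Geltrex™. It was 3.44 to 4.18 CPM in the control, 4.01 to 4.36 on Collagen I, and 3.14 to 4.62 on fibronectin. In these bulk samples, fewer fused cells and less RNA of a gene per fused cell cannot be told apart.

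Promoter sequences were read for *Trim63* and *Trim54*, among the genes whose RNA changed most, and for a FoxO motif near the start of *Sesn1*, because FoxO factors act through DNA elements of the form GTAAACA. The RefSeq table for GRCm38.p6 held windows from 250 bases before to 50 bases after the start for 6 of the 9 genes, in 7 windows. It held none for *Foxo4*, *Fbxo32*, or *Trim55*, so their promoters were not searched. GTAAACA, searched on both strands, was in 3.65% of 32851 such windows of all genes, the E-box of myogenic factors CAGCTG in 16.3%, and the glucocorticoid receptor's core letters AGAACA in 19.0%. In the *Trim63* window a GTAAACA on the minus strand, at position -194 from the start, adjoined an AGAACA at -200, and CAGCTG lay at -72. The same 2 motifs, joined in that order with no base between them, were in 1 of the 32851 windows (0.00304%). That window was the *Trim63* window itself, so this share is not an independent background rate. *Trim54* had no GTAAACA in its window, with CAGCTG at -113 and AGAACA at -222. In 1 of the 2 *Sesn1* windows a GTAAACA lay on the minus strand 23 bases after the start, in a UTR exon of the gene, and the other 4 windows (*Foxo1*, *Foxo3*, *Klf15*, and the second of *Sesn1*) had no match to any of these motifs. The sequences are given on the plus strand of GRCm38.p6 with the motifs in capitals, so a minus-strand GTAAACA reads TGTTTAC. The *Trim54* window is set from the RefSeq start, which lies upstream of the GENCODE start given with the gene. The sequences cover chr4:134314870-134315119 for *Trim63*, chr5:31116362-31116611 for *Trim54*, and chr10:41810589-41810609 for *Sesn1*. A match describes letters only, since no binding was measured.
Trim63 promoter: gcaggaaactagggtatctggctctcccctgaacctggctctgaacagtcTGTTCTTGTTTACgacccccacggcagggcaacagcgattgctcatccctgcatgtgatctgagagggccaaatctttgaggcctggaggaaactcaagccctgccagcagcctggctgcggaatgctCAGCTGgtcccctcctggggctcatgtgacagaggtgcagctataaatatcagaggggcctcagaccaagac
Trim54 promoter: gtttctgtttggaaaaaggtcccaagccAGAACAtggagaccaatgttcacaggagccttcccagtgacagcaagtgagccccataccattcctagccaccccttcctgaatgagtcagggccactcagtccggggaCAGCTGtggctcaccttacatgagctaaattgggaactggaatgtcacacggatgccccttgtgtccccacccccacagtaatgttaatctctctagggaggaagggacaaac
Sesn1 site: cttctacTGTTTACcagcctt

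The 3 MuRF genes changed most, falling on fibronectin and Geltrex™ but not on Collagen I, while *Fbxo32* passed the test against the control on Geltrex™. *Sesn1* fell on both fibronectin and Geltrex™. The FoxO genes changed by less than 2-fold in every comparison, and *Klf15* was close to undetected. A gene passed the test when the Benjamini-Hochberg adjusted p of edgeR's quasi-likelihood test, adjusted over all 14499 genes tested, was at most 0.05. Between Collagen I and the control, 0 of the 9 genes passed, where 1.12% of all genes tested did. At an unadjusted p under 0.05, 2 of the 9 differed in that comparison, beside 14.8% of all genes, and DESeq2 called 0 of the 9, beside 3.19% of all genes. Samples did not overlap between the groups for 2 of the 9 (*Foxo1* and *Foxo4*), beside 17.3% of all genes. On fibronectin 5 of the 9 were lower than in the control and none passed as higher, beside 14.7% of all genes tested lower and 17.1% higher. On Geltrex™ 7 of the 9 were lower and none passed as higher, beside 16.6% of all genes lower and 16.4% higher. The same 5 and 7 genes had every coated sample below every control sample, beside 20.3% and 25.1% of all genes tested. Both of these comparisons use the same 3 control samples. The median log2 fold change over the 9 genes was 0.02 on Collagen I, -0.30 on fibronectin, and -0.47 on Geltrex™, and the median over all genes tested lay between -0.02 and 0.00 in these comparisons.

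**Figure D1:**
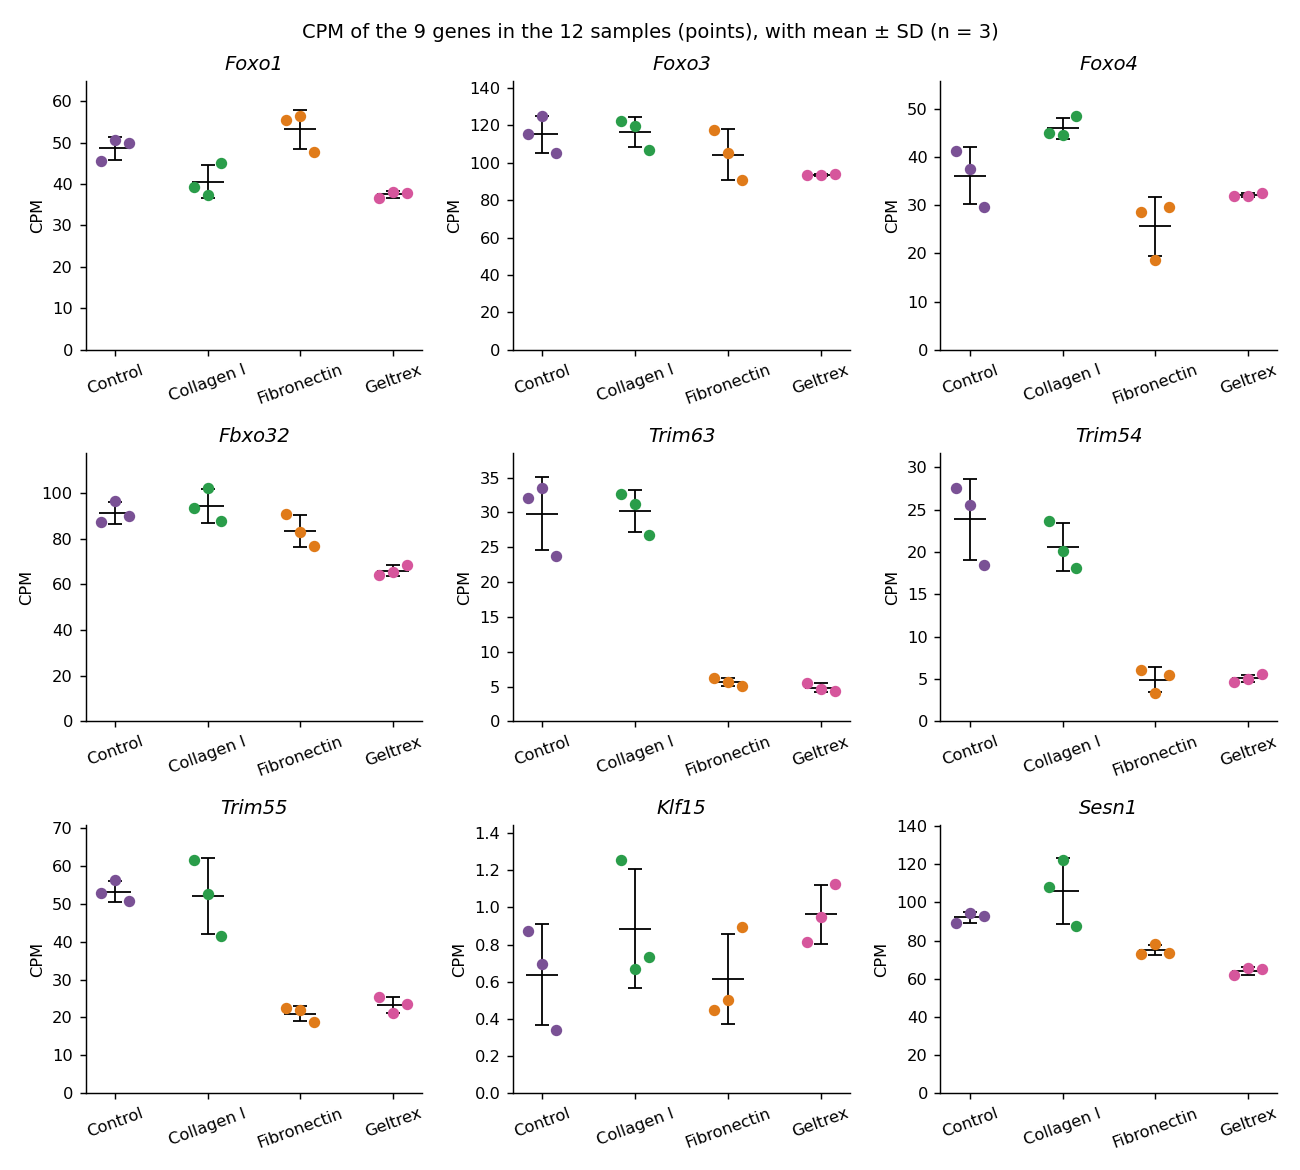
CPM of each of the 9 genes (vertical axes, each starting at 0) in the 12 samples, grouped by coating. Points are samples, and lines with whiskers are group means with SD (n = 3). *Trim63*, *Trim54*, and *Trim55* on fibronectin and Geltrex™ lie below every control and Collagen I sample, whereas *Klf15* lies between 0.340 and 1.26 CPM in all samples.

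*Foxo1* (ENSMUSG00000044167, GRCm38 chr3:52268336-52353221, plus strand) encodes a FoxO factor that is active in fasting muscle and in myoblast fusion. Its level was 45.5, 50.7, and 49.9 CPM in the control samples 1 to 3, 39.2, 37.5, and 45.2 on Collagen I, 55.5, 56.4, and 47.7 on fibronectin, and 36.6, 38.0, and 38.0 on Geltrex™. Fibronectin samples were thus the highest on average and overlapped with the control, and all Collagen I and Geltrex™ samples lay below all control samples. Compared with the control, *Foxo1* fell on Geltrex™ by 0.38 on the log2 scale (SE 0.091, adjusted p = 0.00458). With the Geltrex™ samples summed into 1, its adjusted p was 0.128. Its differences from the control were -0.26 on Collagen I (adjusted p = 0.178) and 0.13 on fibronectin (adjusted p = 0.297). *Foxo1* was higher on fibronectin than on Geltrex™ by 0.50 (SE 0.091, adjusted p = 0.000970), a call lost with the Geltrex™ samples summed (adjusted p = 0.0714). On Collagen I it was lower than on fibronectin, at -0.39 on the log2 scale (SE 0.090, adjusted p = 0.00267). In the order fibronectin, control, Collagen I, and Geltrex™, no neighbouring pair passed the test. Of its exon bases, 7.78% overlap the antisense gene Gm20402, which had 0 counts in every sample.

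*Foxo3* (ENSMUSG00000048756, chr10:42181841-42276755, minus strand), the FoxO factor best known as an activator of *Fbxo32*, was the most abundant of the 3 FoxO genes per kilobase of exon in every group. Its level was 115, 125, and 105 CPM in the control, 122, 120, and 107 on Collagen I, 118, 105, and 90.8 on fibronectin, and 93.2, 93.4, and 94.1 on Geltrex™. The Geltrex™ samples lay below all control and Collagen I samples, while fibronectin overlapped with all other groups. *Foxo3* was lower on Geltrex™ than in the control (-0.30 on the log2 scale, SE 0.095, adjusted p = 0.0239) and higher on Collagen I than on Geltrex™ (0.31, SE 0.095, adjusted p = 0.0170). Neither call was stable. The first was lost without control sample 1 (adjusted p = 0.0515) or 2 (0.117) or any 1 of the Geltrex™ samples (0.0668 to 0.0837), and the second without Collagen I sample 1 (0.0722) or 2 (0.0529) or any 1 of the Geltrex™ samples (0.0518 to 0.0616). With the Geltrex™ samples summed, the adjusted p-values were 0.277 and 0.230. Collagen I and control levels of *Foxo3* differed by 0.01 (adjusted p = 0.960), with a 95% interval of -0.19 to 0.22.

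*Foxo4* (ENSMUSG00000042903, chrX:101254528-101260873, plus strand), the third FoxO factor of muscle, followed another order. Its level was 41.3, 37.5, and 29.7 CPM in the control, 44.9, 44.6, and 48.5 on Collagen I, 28.6, 18.6, and 29.6 on fibronectin, and 31.9, 32.0, and 32.6 on Geltrex™. Every Collagen I sample lay above every other sample, and every fibronectin sample lay below the control samples by a narrow margin. *Foxo4* on Collagen I exceeded fibronectin by 0.84 (SE 0.14, adjusted p = 0.000288), the largest difference of a FoxO gene in the 6 comparisons. It was also higher on Collagen I than on Geltrex™ by 0.52 (SE 0.14, adjusted p = 0.0104), or 0.157 as adjusted p with the Geltrex™ samples summed. On fibronectin it fell by 0.50 from the control (SE 0.15, adjusted p = 0.0163), and that call was lost without control sample 1 (adjusted p = 0.0848) or fibronectin sample 2 (0.0622). The difference of 0.35 between Collagen I and the control had an adjusted p of 0.272.

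Summed per kilobase of exon, the 3 FoxO genes gave 31.2 ± 2.64 CPM per kb in the control, 33.3 ± 0.326 on Collagen I, 27.3 ± 2.47 on fibronectin, and 25.9 ± 0.238 on Geltrex™ (SD, n = 3). *Foxo3* held close to the same share of this sum everywhere, with means of 46.2% to 50.5%. *Foxo1* accounted for 14.1% ± 1.38 of it on Collagen I and 22.6% ± 2.36 on fibronectin, and *Foxo4* for 39.7% ± 1.87 and 26.9% ± 5.99, respectively (SD, n = 3). The ranges of these shares on Collagen I and fibronectin did not overlap for either gene.

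**Figure D2:**
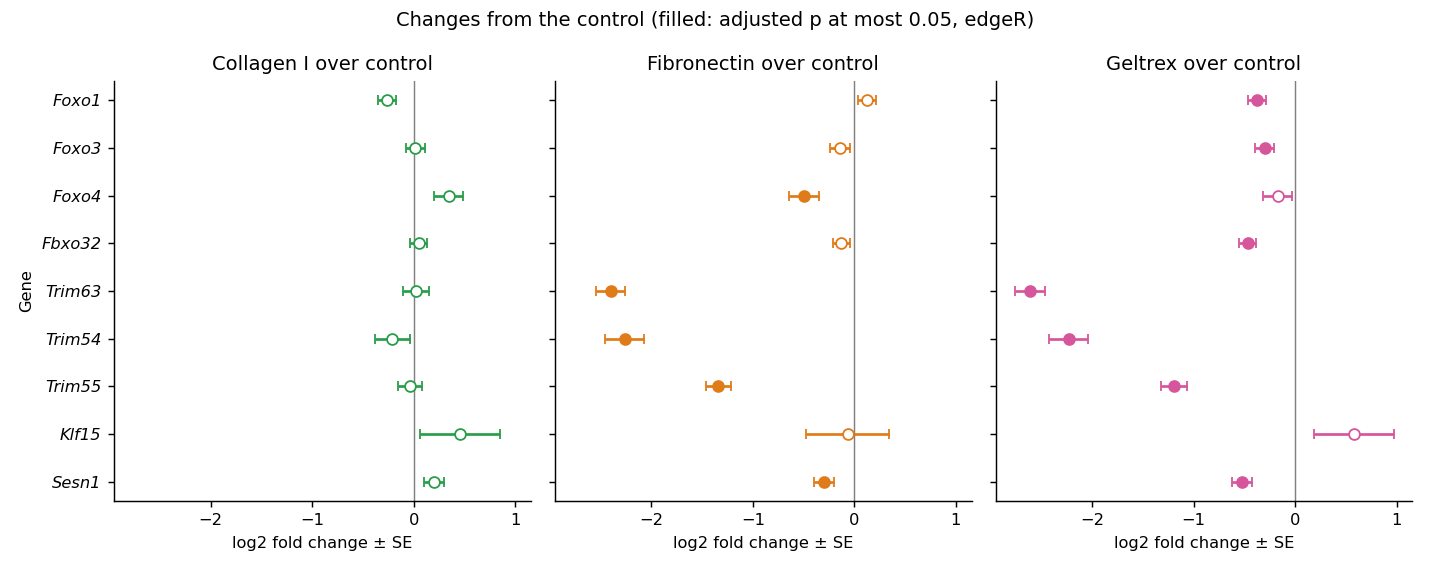
Log2 fold change of each of the 9 genes (rows) from the control on Collagen I, fibronectin, and Geltrex™ (panels), with SE from edgeR. Filled points have an adjusted p of at most 0.05: none on Collagen I, 5 on fibronectin, and 7 on Geltrex™, all to the left of 0.

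*Fbxo32* (ENSMUSG00000022358, chr15:58175879-58214932, minus strand) encodes atrogin-1, the F-box protein through which an SCF ubiquitin ligase recognizes muscle substrates. Its level was 87.4, 96.4, and 90.0 CPM in the control, 93.6, 102, and 87.5 on Collagen I, 90.7, 82.8, and 76.8 on fibronectin, and 64.1, 65.2, and 68.7 on Geltrex™. The Geltrex™ samples were the lowest 3 of the 12, and the other groups overlapped. *Fbxo32* fell on Geltrex™ by 0.47 from the control (SE 0.084, adjusted p = 0.000449) and was higher on Collagen I than on Geltrex™ by 0.52 (SE 0.084, adjusted p = 0.000187). With the Geltrex™ samples summed the first call had an adjusted p of 0.0452. The difference of -0.13 between fibronectin and the control had an adjusted p of 0.257 and a 95% interval of -0.31 to 0.05. Between fibronectin and Geltrex™, *Fbxo32* was higher on fibronectin by 0.34 (SE 0.084, adjusted p = 0.00980). This call was lost without fibronectin sample 1 (0.0694) or Geltrex™ sample 1 (0.0601) or 2 (0.0513), and with the Geltrex™ samples summed (0.231). Collagen I against fibronectin gave 0.18 (adjusted p = 0.0928), which passed without Collagen I sample 3 (0.24, adjusted p = 0.0409) and with a minimum of 10 counts in every sample (0.20, adjusted p = 0.0498). An antisense gene, Gm15943, overlaps 2.67% of its exon bases and had 9 counts in all samples together.

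*Trim63* (ENSMUSG00000028834, chr4:134315120-134329629, plus strand) encodes MuRF1, a RING-finger ubiquitin ligase of the sarcomere whose substrates include myosin heavy chain. Its level was 32.1, 33.5, and 23.8 CPM in the control and 32.7, 31.2, and 26.8 on Collagen I, against 6.24, 5.61, and 5.09 on fibronectin and 5.55, 4.61, and 4.42 on Geltrex™. The lowest control sample was above the highest sample of fibronectin or Geltrex™, and the control overlapped with Collagen I. *Trim63* was 5.28-fold lower on fibronectin than in the control (log2 fold change -2.40, SE 0.14, adjusted p = 1.31e-08) and 6.13-fold lower on Geltrex™ (-2.62, SE 0.15, adjusted p = 5.74e-09). Collagen I exceeded fibronectin 5.35-fold and Geltrex™ 6.21-fold (adjusted p = 7.71e-09 and 4.36e-09). *Trim63* differed by 0.02 between Collagen I and the control (95% interval -0.25 to 0.29) and by 0.22 between fibronectin and Geltrex™ (-0.13 to 0.56).

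*Trim54* (ENSMUSG00000062077, chr5:31116712-31137630, plus strand) encodes MuRF3, which binds microtubules as well as the sarcomere. Its level was 27.6, 25.6, and 18.5 CPM in the control, 23.6, 20.1, and 18.1 on Collagen I, 6.05, 3.31, and 5.48 on fibronectin, and 4.66, 5.07, and 5.55 on Geltrex™. As for *Trim63*, the groups fell into a high pair and a low pair with no overlap between the pairs. *Trim54* was lower than in the control on fibronectin by 4.80-fold (-2.26, SE 0.19, adjusted p = 4.08e-07) and on Geltrex™ by 4.69-fold (-2.23, SE 0.19, adjusted p = 3.63e-07). The values on Collagen I were 4.14-fold those on fibronectin and 4.05-fold those on Geltrex™ (adjusted p = 8.48e-07 and 9.60e-07). Of its exon bases, 26.6% overlap the antisense gene Gm15469, and whether reads were counted by strand is not given in the sources used here. Gm15469 had 23 counts in all 12 samples together, against 4069 for *Trim54*. These counts do not show how reads in the shared bases were assigned, which bears on the level of *Trim54* per kilobase of exon and its share among the MuRF genes.

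*Trim55* (ENSMUSG00000060913, chr3:19644474-19692421, plus strand) encodes MuRF2, which associates with titin and microtubules during sarcomere assembly. Its level was 52.7, 56.3, and 50.7 CPM in the control, 61.7, 52.7, and 41.6 on Collagen I, 22.4, 21.9, and 18.8 on fibronectin, and 25.3, 21.1, and 23.5 on Geltrex™. Again the fibronectin and Geltrex™ samples lay below all others. *Trim55* fell 2.53-fold on fibronectin (log2 fold change -1.34, SE 0.12, adjusted p = 9.93e-07) and 2.29-fold on Geltrex™ (-1.19, SE 0.12, adjusted p = 2.38e-06) relative to the control. Collagen I samples had 2.47-fold the level on fibronectin and 2.23-fold the level on Geltrex™ (adjusted p = 1.01e-06 and 3.08e-06). The 3 MuRF genes were the only ones of the 9 to pass the test with a fold change of at least 2, and they did so in each of the 4 comparisons of the control or Collagen I with fibronectin or Geltrex™. This held under every alternative tried. Among all genes tested, 4.23% were lower on fibronectin and 4.99% lower on Geltrex™ than in the control by this rule, whereas 4.86% had a higher level on Collagen I when fibronectin was the comparator and 4.77% when Geltrex™ was.

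The MuRF genes took different shares of their sum in the high and the low groups. In the control, *Trim55* was the most abundant of them per kilobase of exon, at 20.03 ± 1.07 CPM per kb, followed by *Trim54* at 16.6 ± 3.33 and *Trim63* at 10.5 ± 1.86 (SD, n = 3), and the sum of the 3 genes was 47.1 ± 5.93. The sum was 44.5 ± 6.74 on Collagen I, 13.3 ± 1.30 on fibronectin, and 14.01 ± 0.836 on Geltrex™. *Trim55* accounted for 42.8% ± 4.07 of the sum in the control and 43.7% ± 1.97 on Collagen I, but for 59.4% ± 5.54 on fibronectin and 62.4% ± 2.06 on Geltrex™. *Trim63* went from 22.2% ± 1.26 and 24.0% ± 1.35 to 14.9% ± 0.822 and 12.2% ± 1.20, respectively. The ranges of both shares on fibronectin and Geltrex™ lay outside those of the control and Collagen I. No stretch of 50 bases is shared between the transcripts of the 3 MuRF genes. Relative to *Fbxo32*, the other ligase of the classical atrophy pair, *Trim63* per kilobase was at a ratio of 0.649 to 0.903 in the control, 0.749 to 0.857 on Collagen I, 0.163 to 0.169 on fibronectin, and 0.158 to 0.213 on Geltrex™. The log2 ratio was lower by 2.26 on fibronectin and by 2.14 on Geltrex™ than in the control, each at an exact two-sided permutation p of 0.1, the smallest that 3 samples against 3 allow.

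**Figure D3:**
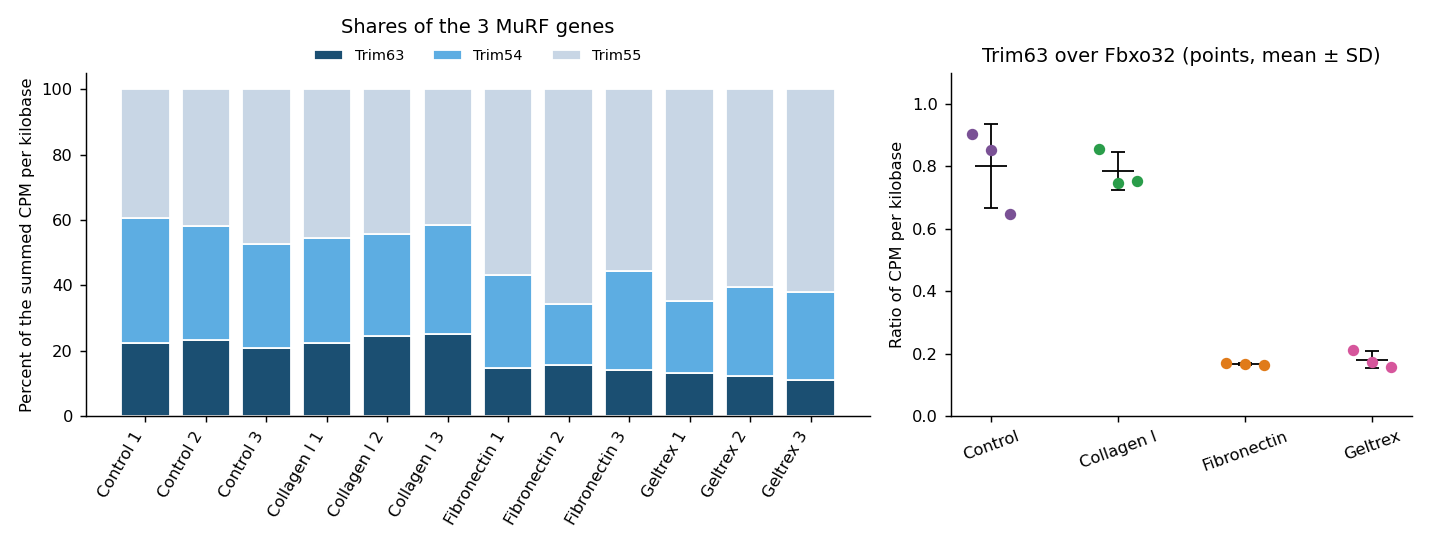
Left, the share of each MuRF gene in the summed CPM per kilobase of *Trim63*, *Trim54*, and *Trim55* in each of the 12 samples. Right, the ratio of *Trim63* to *Fbxo32* per kilobase by group (points, samples, with mean and SD, n = 3), near 0.8 in the control and on Collagen I and at most 0.213 in all fibronectin and Geltrex™ samples.

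The myotube markers moved with the MuRF genes. All 10 were lower on fibronectin and on Geltrex™ than in the control, with median log2 fold changes of -2.02 and -1.48, and all 8 markers of cycling cells were higher, with medians of 1.58 and 1.57. Of all genes tested, 14.7% were lower and 17.1% higher on fibronectin, and 16.6% lower and 16.4% higher on Geltrex™. Between Collagen I and the control, 0 of the 10 and 0 of the 8 passed the test, whereas DESeq2 called 1 and 3 of them and edgeR without a filter on low counts 1 and 5. The shares of all genes in these 3 fits were 1.12%, 3.19%, and 1.98%, respectively. Between fibronectin and Geltrex™, 5 of the 10 myotube markers were lower on fibronectin (median of the 10 -0.41), beside 9.06% of all genes, whereas none of the MuRF genes passed in that comparison. The part of these markers in the fall of the MuRF genes was not tested. The genes whose pattern over the 12 samples was most like that of each MuRF gene, by the root mean square distance of log2 CPM centred on each gene's mean, were *Tnnt1* (0.211) and *Cap2* (0.221) for *Trim63*, *Tekt5* (0.168) and *Coq8a* (0.185) for *Trim54*, and *Egln3* (0.107) and *Cacna1s* (0.117) for *Trim55*, out of 12312 candidates. *Tnnt1* encodes the troponin T of slow fibers, and *Cacna1s* the calcium channel of the T-tubule. The nearest to *Fbxo32* were *Mlx* (0.0785) and *Usp29* (0.0794), to *Sesn1* *C2cd5* (0.0863) and *Ankra2* (0.120), and to *Klf15* *Abcb6* (0.238) and Gm12070 (0.255). For the FoxO genes the nearest were *Nop14* (0.0856) and *Tgif1* (0.0892) to *Foxo1*, *Amotl1* (0.0596) and *Sec14l1* (0.0722) to *Foxo3*, and *Ptp4a3* (0.0802) and *Tmem161a* (0.0875) to *Foxo4*. Among the 9 genes themselves, the smallest distance was 0.101, between *Foxo3* and *Fbxo32*, then 0.138 between *Fbxo32* and *Sesn1*. *Trim63* and *Trim54* were at 0.318. The distance was not scaled to each gene's spread, so genes that vary little lie close to each other. The SD of log2 CPM was 0.169 for *Foxo3*, 0.224 for *Fbxo32*, and 0.305 for *Sesn1*, but 1.316 for *Trim63* and 1.147 for *Trim54*. The distances therefore do not rank these pairs by likeness of pattern.

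*Klf15* (ENSMUSG00000030087, chr6:90462576-90475238, plus strand), a glucocorticoid-induced factor that controls amino acid catabolism, was barely detected. It had 22, 19, and 8 reads in the control, 29, 18, and 17 on Collagen I, 12, 12, and 23 on fibronectin, and 19, 23, and 25 on Geltrex™. All groups overlapped, at 0.637 ± 0.273, 0.886 ± 0.322, 0.614 ± 0.244, and 0.962 ± 0.158 CPM, respectively (SD, n = 3). No comparison passed, and the 95% intervals of the log2 fold change from the control, -0.38 to 1.29 on Collagen I, -0.93 to 0.81 on fibronectin, and -0.25 to 1.41 on Geltrex™, reach close to or beyond 1 in size, a 2-fold change, so a difference was not detectable at this depth.

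*Sesn1* (ENSMUSG00000038332, chr10:41809935-41908424, plus strand) encodes sestrin 1, a target of p53 and FoxO factors that restrains mTORC1 through the GATOR complexes. It was the most abundant of the 9 genes per kilobase of exon in every group, at 23.2 ± 0.701 CPM per kb in the control (SD, n = 3). Its level was 89.1, 94.5, and 93.1 CPM in the control, 108, 122, and 87.7 on Collagen I, 73.2, 78.4, and 73.7 on fibronectin, and 61.9, 65.4, and 65.0 on Geltrex™. The groups were ordered from Collagen I and the control, which overlapped, through fibronectin to Geltrex™, with no overlap between fibronectin and Geltrex™. *Sesn1* was lower on Geltrex™ than in the control (log2 fold change -0.52, SE 0.098, adjusted p = 0.000646), although with the Geltrex™ samples summed the adjusted p was 0.0510. Its fall on fibronectin was smaller (-0.30, SE 0.098, adjusted p = 0.0297) and lost the call without control sample 2 (0.0841) or 3 (0.0688) or fibronectin sample 1 (0.106) or 3 (0.0747). Collagen I exceeded fibronectin by 0.50 (SE 0.098, adjusted p = 0.000817) and Geltrex™ by 0.73 (SE 0.098, adjusted p = 3.40e-05). The difference of 0.23 between fibronectin and Geltrex™ did not pass over all samples (adjusted p = 0.118).

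Between the coatings, Collagen I exceeded fibronectin in 5 of the 9 genes (*Foxo4*, the MuRF genes, and *Sesn1*) and was lower in 1 (*Foxo1*), beside 22.1% of all genes tested higher and 22.9% lower. It exceeded Geltrex™ in 7 of the 9, all but *Foxo1* and *Klf15*, beside 18.2% of all genes higher, and was lower in none, beside 19.0% lower. Fibronectin exceeded Geltrex™ in 2 of the 9, *Foxo1* and *Fbxo32*, beside 10.3% of all genes, and was lower in none, beside 9.06%. Over the 9 genes the median log2 fold change was 0.52 for Collagen I against fibronectin, 0.52 against Geltrex™, and 0.16 for fibronectin against Geltrex™, and over all genes it was 0.02, 0.03, and -0.0049, respectively. *Foxo1* on fibronectin was at its highest mean, 53.2 ± 4.79 CPM, while the MuRF genes were low, but it did not pass against the control (adjusted p = 0.297). On Geltrex™ *Foxo1*, *Foxo3*, *Fbxo32*, *Sesn1*, and *Trim63* had their lowest means, and *Trim54* and *Trim55* were low as well.

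Upstream of FoxO, the list of 12 genes from the insulin receptor to AKT and SGK1 had 5 genes higher and 1 lower on fibronectin than in the control, and likewise 5 and 1 on Geltrex™, 6 of 12 each, beside 31.9% and 33.0% of all genes tested in either direction. The medians were 0.20 and 0.21. On fibronectin the count of 6 fell to 3 without control sample 1. *Sgk1*, an AKT-related kinase that phosphorylates FoxO3, had 45.4 to 46.9 CPM in the control, 31.4 to 38.1 on Collagen I, 31.2 to 46.0 on fibronectin, and 194 to 203 on Geltrex™. All Geltrex™ samples were thus far above the rest, and *Sgk1* was 4.33-fold higher there than in the control (log2 fold change 2.11, SE 0.12, adjusted p = 5.74e-09). The insulin receptor substrates rose with it on Geltrex™, *Irs1* from 39.5 ± 2.62 to 85.9 ± 4.63 CPM (1.12, SE 0.11, adjusted p = 1.81e-06) and *Irs2* from 17.4 ± 1.596 to 34.2 ± 0.168 CPM (0.97, SE 0.089, adjusted p = 6.19e-07; SD, n = 3). On fibronectin *Akt2* fell by 0.62 (adjusted p = 7.78e-05), while *Pik3r1*, the regulatory subunit of PI3K, rose by 0.56 (adjusted p = 0.000339). Neither change was particular to fibronectin. *Akt2* was at 157 to 162 CPM in Geltrex™ samples, below the 186 to 215 CPM of control samples. *Pik3r1* reached 207 to 214 CPM in Geltrex™ samples, above the 114 to 142 CPM of control samples.

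Among 11 other classical FoxO targets, 5 were higher and 1 lower on fibronectin than on Geltrex™, beside 10.3% and 9.06% of all genes. On Geltrex™ 6 fell and 1 rose relative to the control (median -0.44), and on fibronectin 3 fell and 2 rose (median 0.06), so 7 and 5 of the 11 passed, beside 33.0% and 31.9% of all genes. The fibronectin count of 5 fell to 2 without control sample 1 or fibronectin sample 1 or 2, and to 3 without control sample 3. *Ccng2*, which encodes cyclin G2, had 98.1 to 98.9 CPM in the control, 97.8 to 107 on fibronectin, and 51.4 to 55.5 on Geltrex™. On Collagen I it had 82.5 to 94.5 CPM. The Geltrex™ samples of *Ccng2* were the lowest, and its log2 fold change from the control was -0.89 (SE 0.074, adjusted p = 2.50e-07), and its difference between fibronectin and Geltrex™ was 0.95 (SE 0.074, adjusted p = 2.52e-07). *Bcl6*, a transcriptional repressor, fell on both, by 0.97 on fibronectin and 0.91 on Geltrex™. *Cited2*, a CBP/p300-binding factor, was the 1 target that rose on Geltrex™, from 254 ± 16.9 to 764 ± 8.77 CPM (SD, n = 3; log2 fold change 1.59, SE 0.11, adjusted p = 4.51e-08). On Collagen I 1 gene of the list passed, *Pdk4*, which restrains glucose oxidation in favor of fatty acids (-0.64, adjusted p = 0.0226). This call was lost without control sample 2 or 3 or any 1 of the Collagen I samples (adjusted p = 0.0529 to 0.0942), and with only the 2 groups fitted (0.0646).

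Glucocorticoid and KLF15 targets, with the glucocorticoid receptor, were 11 genes of which 10 were tested, and 4 rose and 2 fell on Geltrex™, against 2 and 1 on fibronectin. Thus 6 and 3 of the 10 passed, beside 33.0% and 31.9% of all genes, and the fibronectin count is near that background. The fibronectin count of 3 fell to 1 without control sample 1 or fibronectin sample 1 or 2. *Ddit4* (REDD1), an inhibitor of mTORC1 that glucocorticoids and hypoxia induce, had 22.5 to 27.8 CPM in the control, 23.4 to 30.2 on fibronectin, and 5.46 to 6.22 on Geltrex™, a 4.24-fold fall on Geltrex™ (-2.08, SE 0.15, adjusted p = 4.51e-08). The phosphatase *Dusp1* (2.84-fold, adjusted p = 0.000583) and the clock gene *Per1* (2.06-fold, adjusted p = 1.79e-07) rose there. The chaperone *Fkbp5* was 0.54 higher on fibronectin (SE 0.10, adjusted p = 0.000937). On Collagen I it was the only gene of this list to pass (-0.57, adjusted p = 0.0145), a call lost without control sample 2 (0.0720) or 3 (0.0501) or Collagen I sample 2 (0.0796), and with only the 2 groups fitted (0.121).

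Other ubiquitin ligases of muscle, 11 genes, had 3 higher and 3 lower on each of fibronectin and Geltrex™, with medians of -0.0011 and -0.02, beside 17.1% of all genes higher and 14.7% lower on fibronectin and 16.4% and 16.6% on Geltrex™. The fibronectin count fell to 3 without fibronectin sample 1. *Asb2*, a cullin adaptor of muscle, fell on fibronectin from 15.4 ± 1.88 to 3.79 ± 0.963 CPM (log2 fold change -2.02, SE 0.16, adjusted p = 1.86e-07) and on Geltrex™ to 8.94 ± 0.906 CPM (-0.79, SE 0.15, adjusted p = 0.000642). *Fbxo40*, whose product targets IRS1, fell on Geltrex™ by 2.69 (SE 0.32, adjusted p = 9.83e-06) and on fibronectin by 1.55 (SE 0.29, adjusted p = 0.000758). Of 31 proteasome subunits, 11 were lower on fibronectin and 13 on Geltrex™, none was higher, and the medians were small, -0.18 and -0.17. Of all genes, 14.7% and 16.6% were lower and 17.1% and 16.4% higher, respectively. *Psmc3*, an ATPase of the proteasome base, fell by 0.44 on fibronectin (adjusted p = 0.000153) and by 0.34 on Geltrex™ (adjusted p = 0.000979). These counts rested on few samples. The count on fibronectin was 4 without control sample 1, 6 without control sample 2, 5 without fibronectin sample 1, and 6 without fibronectin sample 2. On Geltrex™ it was 8 without control sample 1, 7 without control sample 3, 5 without any 1 of the Geltrex™ samples, and 0 with them summed.

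Sestrin, p53, and mTORC1 genes, 12 in all, had 3 higher and 5 lower on fibronectin and 2 and 4 on Geltrex™, or 8 and 6 of the 12, beside 31.9% and 33.0% of all genes. The Geltrex™ count of 6 fell to 2 without control sample 1 or Geltrex™ sample 3 or with the Geltrex™ samples summed, and to 3 without a filter on low counts. *Cdkn1a* (p21), a p53 target that stops the cell cycle, fell from 1029 ± 76.6 CPM in the control to 459 ± 17.4 on fibronectin (log2 fold change -1.16, SE 0.090, adjusted p = 1.47e-07) and 562 ± 27.6 on Geltrex™ (-0.87, SE 0.089, adjusted p = 1.96e-06). All cycling markers rose in both comparisons, as given above, and their part in this fall was not tested. *Rptor*, which encodes the mTORC1 subunit Raptor, fell by 0.50 on fibronectin (adjusted p = 0.00102), and *Tsc1*, an mTORC1 inhibitor, by 0.54 on Geltrex™ (adjusted p = 3.67e-05). Autophagy genes, 17 in all, had 2 higher and 2 lower on fibronectin and 3 and 1 on Geltrex™. Each count, 4 of 17, was below the 31.9% and 33.0% of all genes, and fell to 2 on leaving out single samples (control 1 or 2, and control 1 or Geltrex™ 1 or 3, respectively). With the Geltrex™ samples summed, 0 of the 17 passed against the control. *Tfeb*, a master factor of lysosome genes, fell by 0.59 on fibronectin (adjusted p = 0.00384), and *Bnip3*, a mitophagy receptor, rose by 0.38 on Geltrex™ (adjusted p = 0.00712, and 0.123 with the Geltrex™ samples summed). The list of *Foxo6* and modifiers of FoxO proteins, 10 genes in all, had 2 higher on fibronectin, among them the ubiquitin ligase subunit *Skp2* (0.56, adjusted p = 0.00156). On Geltrex™ 1 was higher, the acetyltransferase *Crebbp* (0.39, adjusted p = 0.00454, a call lost with the Geltrex™ samples summed, at 0.40). These 2 of 10 and 1 of 10 were below the 31.9% and 33.0% of all genes. Apart from *Pdk4* and *Fkbp5*, no gene of these 8 lists passed between Collagen I and the control.

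**Figure D4:**
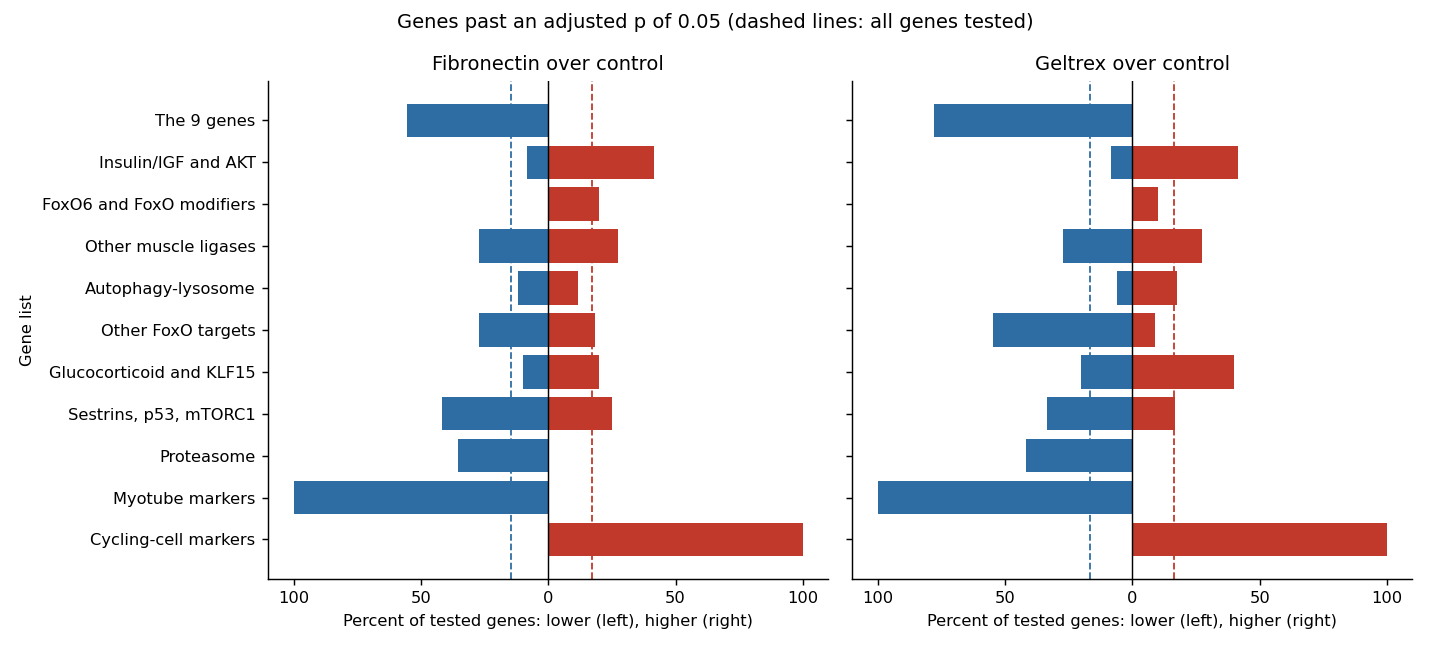
Percent of tested genes of each list (rows) that were lower (left of 0) or higher (right of 0) than the control at an adjusted p of at most 0.05, on fibronectin and on Geltrex™ (panels). Dashed lines give the percent over all 14499 genes tested. The bars of the 9 genes, the proteasome, and the myotube markers extend to the left only.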

How the data were processed

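RNA-seq of C2C12GFP cells in 4 groups of 3 samples was examined. Reads were trimmed (Trimmomatic), aligned (HISAT2), and counted (featureCounts) by the authors, who deposited raw counts per gene and sample. The genome build, annotation release, and strand setting are not given in the sources used here. All 55536 identifiers are in GENCODE M21 (GRCm38), which gave names, positions, and exon lengths.

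The counts were fitted in R 4.3.3 with edgeR 4.0.16 (quasi-likelihood, TMM scaling, filterByExpr with a minimum count of 10 and total of 15, 14499 genes, all 12 samples in 1 model with 8 residual degrees of freedom). P-values were adjusted over all genes tested, with a threshold of 0.05. SEs of log2 fold changes were derived from the F statistic. The study's methods name DESeq2, which was run (1.42.0) as an alternative, with RLE scaling, other filters, fits of only the 2 groups compared, a replicate block, and each sample left out. Scripts were tested on simulated data. CPM was computed with TMM-scaled library sizes, and CPM per kilobase with exon lengths.

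The 9 genes and all lists were chosen with earlier results of these data known. Promoter windows on chromosome 18 were not used. All 9 genes were named. From each list and comparison, at most 3 genes were named, those with the largest changes among genes past the test with a mean of at least 1 CPM, together with the 2 genes nearest in pattern to each of the 9.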

Additional observations from a re-analysis of the deposited data

How the results depend on the processing

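Across DESeq2, RLE scaling, other filters, and fits of only the 2 groups compared, no call on the 9 genes was lost, and *Klf15* could not be tested with a minimum of 10 counts in every sample. Added calls were *Foxo4* between fibronectin and Geltrex™ without a filter on low counts (adjusted p = 0.0304), *Sesn1* in that comparison with only those 2 groups fitted (0.0278), and *Fbxo32* between Collagen I and fibronectin as given above. The number of the 9 genes past the test with a fold change of at least 2 stayed at 3 or 0 throughout. With single samples left out, the number past the test was 4 throughout for fibronectin against the control (5 with all samples), 6 to 7 for Geltrex™ against the control and for Collagen I against Geltrex™, 6 to 7 for Collagen I against fibronectin, and 1 to 2 for fibronectin against Geltrex™. In the fit that sums the Geltrex™ samples into 1, an alternative chosen after seeing the data, the lone sample is assumed to vary like the other groups, and the number was 4 against the control, 5 for Collagen I against Geltrex™, and 0 for fibronectin against Geltrex™. Over all genes tested the shares past the test fell too, to 13.3%, 13.6%, and 4.49%, respectively.

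Some differences that had not passed changed sign when single samples were left out. Between Collagen I and the control, their log2 fold changes ranged from -0.045 to 0.083 for *Foxo3*, -0.0094 to 0.096 for *Fbxo32*, -0.12 to 0.12 for *Trim63*, and -0.17 to 0.093 for *Trim55*. *Klf15* ranged from -0.43 to 0.22 for fibronectin against the control and from -0.46 to 0.044 for Collagen I against Geltrex™, and *Trim54* from -0.21 to 0.18 for fibronectin against Geltrex™. The cause was not tested.

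Samples share only a number across groups: same-numbered samples correlated in their deviations from the group means at -0.15 to 0.23, and in no comparison were all 3 pairs above 0.1. For Collagen I and fibronectin, 6 of 6 samples correlated best with their own number (0.05, 0.17, and 0.23), a hint from the data and not the design. With the replicate number as a block, all 54 differences of the 9 genes kept their direction and call. Calls of the lists changed more with the settings. Between Collagen I and the control, DESeq2 called 462 and edgeR without a filter on low counts 581 of all genes, against 162, and up to 3 genes of a pathway list, whereas the count was 39 with only the 2 groups fitted and 44 to 155 with single samples left out (44 without Collagen I sample 2, 64 without control sample 2, 84 without Collagen I sample 1, and 92 without control sample 3). Without that filter, 7 proteasome subunits passed on Geltrex™ in place of 13. With only the 2 groups fitted, counts on fibronectin fell to 2 autophagy genes, 1 glucocorticoid gene, and 1 FoxO modifier, and on Geltrex™ 2 FoxO modifiers passed in that fit, in DESeq2, and without the filter.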
